A study of Bos taurus with 24 samples.

Results

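Early bovine blastocysts that developed in the cow were compared, gene by gene, with early blastocysts made entirely in vitro in serum-free medium. The comparison held 16 of the 24 single embryos of the series, 8 in vivo derived and 8 serum-free, and each embryo was treated as 1 replicate. Of the 24621 genes in the count table, 7314 had at least 15 counts in every embryo of at least 1 of these groups and were tested.

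The in vivo derived embryos were flushed from the uterus of 3 superovulated and inseminated Holstein cows on day 7 after insemination. The serum-free embryos came from oocytes of slaughterhouse ovaries of Holstein cows, which were matured with 20 ng/mL epidermal growth factor, fertilized, and cultured in synthetic oviduct fluid with 0.4% bovine serum albumin, selenium at 5 ng/mL, and insulin and transferrin at 5 μg/mL each, under 5% O2, and were collected on day 6 or 7 in 3 separate experiments. Semen of the same bull was used for both. Each group had 5 male and 3 female embryos. With 3 cows and 3 experiments for 8 embryos a group, some embryos shared a donor or an experiment and were not independent. The labels tie no embryo to a donor cow, an in vitro run or a sequencing lane. The in vivo embryos also differed from the cultured ones in oocyte source, hormone treatment of the cow and, for cultured embryos collected on day 6, age. None of these can be told apart from culture. P-values therefore measure only the spread between these embryos. The other 8 embryos of the series were cultured with serum. Per the study's methods, their oocytes were matured with 20% fetal bovine serum, glutamine and pyruvate instead of the growth factor. Culture used 5% fetal bovine serum in place of albumin, insulin, transferrin and selenium. They thus differed from the serum-free embryos in maturation and in several supplements, and are used here only where their level bears on a result.

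A blastocyst is a fluid-filled ball of epithelial trophectoderm around an inner cell mass. Cells make cholesterol from acetyl-CoA through the mevalonate pathway, and the genes of this route are switched on together by the transcription factor SREBP2 when sterols are scarce. Serine is made from a glycolytic intermediate by PHGDH, PSAT1 and PSPH, and its genes and those of amino acid uptake respond to ATF4, a factor that accumulates when amino acids run short or unfolded protein builds up. Germline genes of the piRNA pathway silence transposons in germ cells and are normally held off by DNA methylation in somatic tissues.

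Serum-free embryos had higher levels of 118 genes and lower levels of 43 than in vivo derived embryos at an adjusted p below 0.05 and a change of at least 2-fold, 161 of 7314 genes or 2.2%. Called in the upward direction were 1.61% of the genes tested, and in the downward direction 0.588%. Among the upward calls were 7 enzymes of sterol synthesis, 4 enzymes of serine and glycine metabolism, 5 genes of the piRNA pathway, the oocyte genes BTG4 and OOEP, the laminin gene LAMA1, the drug transporter ABCB1 and the prostaglandin synthase PGHS-2 (PTGS2). The downward calls included GARNL3, CCND2, PDGFRA and IRF1, of which only GARNL3 stayed called whichever embryo was left out. The median change of the upward calls was 1.50 on the log2 scale and that of the downward calls -1.16, while the median over all genes tested was 0.00304. Of the 118 upward calls 55 reached the count limit only in the serum-free group, and of the 43 downward calls 15 reached it only in vivo, so those genes could enter the test only through the group in which they were high. Among genes named below, besides those marked in place, this held upward for FADS1, FABP5, PCTP, OSBPL3, CTH, HSPA1A, RNF17, RBM46, FMR1NB and CT55. It also held upward for CYP17A1, GGT5, GPX2, TTC32, PAWR, RARB, MGC137030, MST4, DPYSL3 and SLC28A2. Downward it held for GGNBP1, MT2, MGC151839, LRRK2, TMEM8, SEL1L3, CREBRF, COG3 and ENSBTAG00000035959. Leaving out 1 in vivo embryo, A7, A8, A6 or A9, lowered the downward calls to 22, 25, 28 and 28. At the limit itself, 87 genes had a lowest count of exactly 15 in their better group, and another 99 had a lowest count of 14 and stayed outside. The 2 groups did not overlap for 25 of the 161 called genes, 20 of them upward, and for 0.93% of all genes tested.

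**Figure D1:**
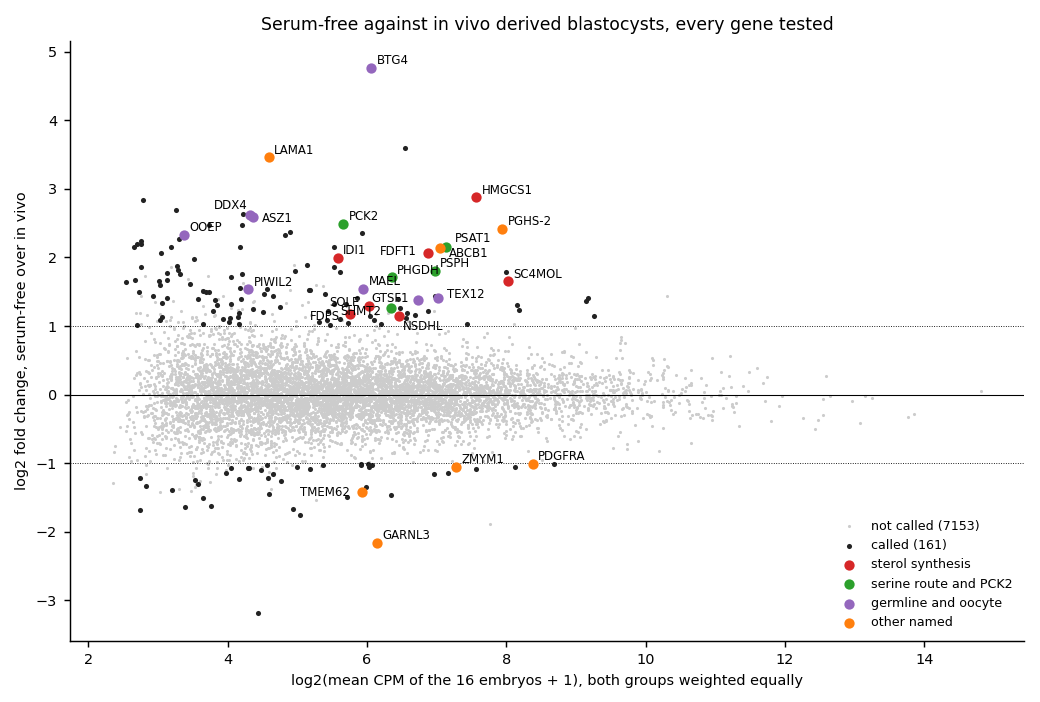
Log2 fold change (serum-free over in vivo, y axis) against the mean level of each of the 7314 genes tested (log2 of mean CPM plus 1, x axis). Grey points are genes not called, black points the 161 called genes, coloured points named genes by group, and dotted lines mark 2-fold. Upward calls outnumber downward calls, 118 to 43, and BTG4, LAMA1 and HMGCS1 lie highest among the labelled genes.

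Levels are given as normalized counts (CPM, scaled to the depth of each embryo) on 1 scale for all embryos. Fold changes are log2 of serum-free over in vivo with their standard error. Adjusted p-values come from edgeR's quasi-likelihood test over the 7314 genes, unless another fit or set of embryos is named. Total counts ran from 3622680 to 5743015 in vivo and from 3350180 to 5756202 in the serum-free group. One serum-free male, embryo C7, stood apart. It held 76 genes at 50 CPM or more that were at least 2-fold above each of the other 15 embryos, against 0 to 3 in any other embryo. Sterol enzymes and chaperones of the endoplasmic reticulum were among these genes, so both groups are given with and without C7. One in vivo female, A9, stood apart for BTG4.

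Part of the early mevalonate route was higher in the serum-free embryos. Of 8 enzymes listed, 7 were tested and 3 were called upward, HMGCS1, IDI1 and FDPS, and 0 downward. The median change over the 7 was 1.17 (log2). HMGCS1, which condenses acetyl-CoA units into HMG-CoA, ranged from 22.2 to 68.2 CPM in vivo (median 40.9) and from 38.6 to 1508 CPM in serum-free embryos (median 123). In all, 7 of the 8 serum-free embryos lay above the highest in vivo embryo, with C7 highest, followed by C4 and C8, while C10 lay within the in vivo range. For HMGCS1 this gave a log2 fold change of 2.88 ± 0.59 (adjusted p = 0.00623). IDI1, which isomerizes isopentenyl diphosphate, ranged from 9.59 to 32.2 CPM in vivo (median 17.4) and from 13.6 to 332 CPM in serum-free embryos (median 50.2). C1, C6 and C10 were within the in vivo range and the other 5 serum-free embryos above it. IDI1 thus differed by 1.99 ± 0.52 (log2, adjusted p = 0.0277). FDPS, the synthase of farnesyl diphosphate, gave 1.17 ± 0.27 (adjusted p = 0.0162). ACAT2, the thiolase that opens the route, had 1.22 ± 0.38 (adjusted p = 0.059), and MVD, the decarboxylase before IDI1, 1.14 ± 0.41 (adjusted p = 0.101). Neither was called. MVK and GGPS1 both stood at 0.02.

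Late sterol synthesis showed upward calls too. Of 12 enzymes listed, 9 were tested, 4 were called upward and 0 downward, and the median change was 1.15. FDFT1, squalene synthase and the first enzyme committed to sterols, ranged from 27.2 to 55.5 CPM in vivo (median 47.7) and from 52.6 to 536 CPM in serum-free embryos (median 134). All serum-free embryos except C1 lay above the in vivo maximum. The FDFT1 change was 2.06 ± 0.35 (log2, SE), with an adjusted p of 0.00197. SC4MOL, an older symbol of the sterol C4-methyl oxidase MSMO1, ranged from 47.6 to 238 CPM in vivo (median 117) and from 86.9 to 1416 CPM in serum-free embryos (median 280.5). Only C7, C4, C8 and C3 exceeded the highest in vivo embryo. For SC4MOL this gave a log2 fold change of 1.65 ± 0.45 (adjusted p = 0.0353). SQLE (squalene epoxidase) had 1.30 ± 0.35 (adjusted p = 0.0324), and NSDHL (a C4-decarboxylating dehydrogenase) 1.15 ± 0.33 (adjusted p = 0.0454). DHCR7, which makes cholesterol from 7-dehydrocholesterol, had 1.02 ± 0.37 (adjusted p = 0.11) and was not called. CYP51A1, the lanosterol demethylase, was not tested because 1 of the 8 serum-free embryos, C1, had only 7 counts. Its level was 1.34 to 339 CPM in the serum-free group and 0.228 to 12.5 CPM in vivo. C10H14ORF1 (ERG28), a scaffold of the C4-demethylation enzymes that was noticed after its values were seen, was also called, with 1.55 ± 0.31 (adjusted p = 0.00564). Genes of sterol sensing and uptake did not move as a group. Of 18 listed, 10 were tested and 0 were called in either direction, with a median change of -0.03. SREBF1 stood at -0.49 and SCARB1, the HDL receptor, at 0.87, with adjusted p-values of 0.547 and 0.0912.

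Without C7 fewer sterol genes were called, and the fold changes of the 7 called genes stayed positive. Among the early enzymes 1 of 7 was still called, HMGCS1, and the median change was 0.60. Among the late enzymes 1 of 9 was called, FDFT1, and the median change was 0.76. The share of all genes called upward without C7 was 1.56%, of 7387 tested. HMGCS1 then had 1.88 ± 0.39 (adjusted p = 0.00716) and FDFT1 1.64 ± 0.27 (adjusted p = 0.00104). IDI1 gave 1.05 ± 0.33 (adjusted p = 0.0609) and SC4MOL 1.00 ± 0.34 (adjusted p = 0.0793). FDPS kept an adjusted p of 0.0156 but its change, 0.81, was under 2-fold. The summed level of the late enzymes was 354 to 709 CPM in vivo (median 452) and 484 to 1319.9 CPM in the 7 other serum-free embryos (median 794).

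**Figure D2:**
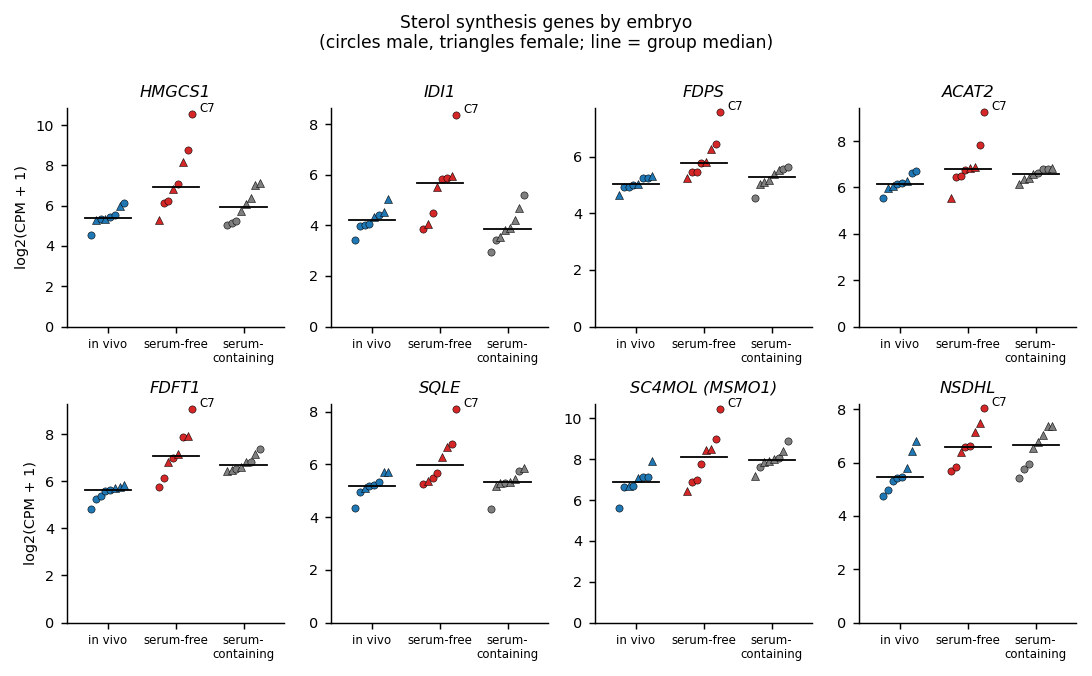
Level of 8 sterol synthesis genes in each embryo, as log2(CPM + 1) on the y axis, by group on the x axis. Circles are male embryos, triangles female, the line is the group median, and embryo C7 is labelled. C7 is the highest of all embryos for each gene, and the remaining serum-free embryos spread from the in vivo range upward.

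Fatty acid genes moved less. Of 11 genes tested from a list of 17, FADS1, the delta-5 desaturase of long polyunsaturated fatty acids, was the 1 called upward. It ranged from 1.41 to 8.02 CPM in vivo (median 6.12) and from 5.18 to 101 CPM in serum-free embryos (median 18.8), with 7 of 8 serum-free embryos above every in vivo embryo. FADS1 thus differed by 2.47 ± 0.49 (log2, adjusted p = 0.00474). Without C7 the change was 1.88, with an adjusted p of 0.00716. Fatty acid synthase, FASN, was under 2-fold at 0.97 (adjusted p = 0.015), and ELOVL1 at 0.88 (adjusted p = 0.0411). All 11 changes were positive, with a median of 0.42. FABP5, a carrier of fatty acids, was called with 2.37 ± 0.51 (adjusted p = 0.00974). PCTP, a phosphatidylcholine carrier, and OSBPL3, an oxysterol-binding protein, were noticed after their values were seen, with 1.98 ± 0.41 (adjusted p = 0.00654) and 1.27 ± 0.35 (adjusted p = 0.0329).

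Each enzyme of serine synthesis was higher in the serum-free embryos. Of 19 serine, glycine and folate enzymes listed, 16 were tested, 4 were called upward and 0 downward, and the median change was 0.51. Without C7 the same 4 were called. PHGDH, which commits a glycolytic intermediate to serine, ranged from 10.7 to 107 CPM in vivo (median 29.7) and from 57.6 to 191 CPM in serum-free embryos (median 111). A single in vivo embryo, A3, reached the serum-free range and stood well above the other 7. The PHGDH change was 1.71 ± 0.35 (log2, SE), with an adjusted p of 0.00623. PSAT1, the aminotransferase of the route, ranged from 12.1 to 106 CPM in vivo (median 48.9) and from 102 to 362 CPM in serum-free embryos (median 191). Only C2 fell below the in vivo maximum, which again belonged to A3. For PSAT1 this gave a log2 fold change of 2.15 ± 0.34 (adjusted p = 0.00137). PSPH, the phosphatase that releases serine, ranged from 14.2 to 94.6 CPM in vivo (median 56.8) and from 73.7 to 370.4 CPM in serum-free embryos (median 166). C7 was the lowest serum-free embryo here and the only one within the in vivo range. PSPH thus differed by 1.80 ± 0.34 (log2, adjusted p = 0.00355). SHMT2, which turns serine into glycine in mitochondria and charges folate with a one-carbon unit, had 1.27 ± 0.27 (adjusted p = 0.0102). The folate enzymes MTHFD2 and MTHFD1L passed the p threshold at under 2-fold, 0.90 and 0.51. TYMS, of thymidylate synthesis, stood at -0.37 and was not called.

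Neighbouring amino acid genes were called in part. Of 18 methionine, cysteine and other amino acid enzymes tested, 2 were called upward and 0 downward: CTH, which makes cysteine from cystathionine, with 1.32 ± 0.38 (adjusted p = 0.0418), and PYCR1, the last enzyme of proline synthesis in mitochondria, with 1.52 ± 0.44 (adjusted p = 0.0464). Without C7, CTH gave an adjusted p of 0.0588. ASNS, asparagine synthetase, stood at 0.61 (adjusted p = 0.0938). Of 13 tested genes of the ATF4 response, 3 were called upward, PCK2, DDIT4 and NUPR1, and 0 downward, with and without C7. PCK2, mitochondrial phosphoenolpyruvate carboxykinase, ranged from 6.40 to 24.3 CPM in vivo (median 13.3) and from 43.5 to 139 CPM in serum-free embryos (median 80.9). The groups did not overlap. The PCK2 change was 2.49 ± 0.29 (log2, SE), with an adjusted p of 0.000191. DDIT4, an inhibitor of mTORC1, had 1.39 ± 0.27 (adjusted p = 0.004), and NUPR1, a stress-induced chromatin protein, 1.52 ± 0.41 (adjusted p = 0.0326). The median over the 13 was 0.62 and 9 changes were positive. ATF4 itself stood at 0.62 (adjusted p = 0.0479), under 2-fold, DDIT3 (CHOP) at -0.22 (adjusted p = 0.79), and PPP1R15A (GADD34) at -0.88 (adjusted p = 0.0322). Of 8 amino acid transporters tested, SLC1A5, the glutamine carrier, was called upward with 1.46 ± 0.35 (adjusted p = 0.0198), and the glutamate carrier SLC1A1 stood at -0.78 (adjusted p = 0.00322), under 2-fold. GARS, glycyl-tRNA synthetase, was noticed after its values were seen, with 1.08 ± 0.24 (adjusted p = 0.0106).

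**Figure D3:**
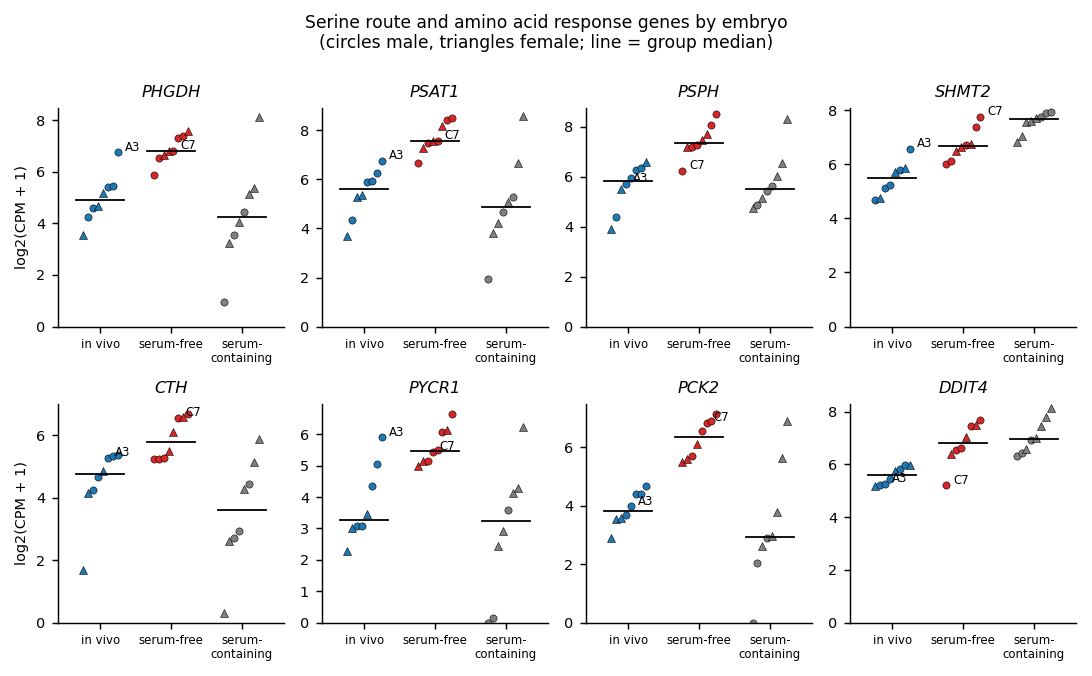
Level of 8 serine route and amino acid response genes in each embryo, as log2(CPM + 1) on the y axis, by group on the x axis. Circles are male embryos, triangles female, the line is the group median, and C7 and A3 are labelled. C7 lies among the other serum-free embryos except for PSPH and DDIT4, where it is the lowest of them, and SHMT2, where it is the highest. A3 is the highest in vivo embryo for PHGDH and PSAT1, and PCK2 does not overlap between in vivo and serum-free embryos.

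Chaperones of the endoplasmic reticulum were examined after their values were seen. Of 22 tested genes of a 24-gene folding list, 3 were called upward, ERP70, HSP90B1 and MANF, 21 changes were positive, and the median was 0.72. ERP70 (PDIA4), a disulfide isomerase, ranged from 6.08 to 25.0 CPM in vivo (median 12.0) and from 17.6 to 827 CPM in serum-free embryos (median 80.0). Every serum-free embryo except C1 exceeded the in vivo maximum, and C7 was far above the rest. For ERP70 this gave a log2 fold change of 3.60 ± 0.60 (adjusted p = 0.0017). HSP90B1 (GRP94) ranged from 263 to 365 CPM in vivo (median 315) and from 358 to 3233 CPM in serum-free embryos (median 544), and GRP78 (HSPA5), the chaperone BiP, from 429 to 1021 CPM in vivo (median 651) and from 536 to 8051 CPM in serum-free embryos (median 909). HSP90B1 had 1.42 ± 0.36 (adjusted p = 0.0249) and GRP78 1.43 ± 0.44 (adjusted p = 0.061). MANF, a secreted factor induced by unfolded protein, did not overlap between groups and had 1.31 ± 0.25 (adjusted p = 0.00426). Without C7 the median of the list was 0.21 and ERP70 alone was called, at 2.47 ± 0.35 (adjusted p = 0.000295). HSP90B1 and MANF kept adjusted p-values of 0.00326 and 0.000295 at changes of 0.68 and 0.91, under 2-fold. Heat shock proteins and other chaperones gave 2 upward calls of 14 tested, HSPA1A with 1.75 ± 0.43 (adjusted p = 0.021) and HSPB1 with 1.14 ± 0.20 (adjusted p = 0.00204), while HSPA8, the mitochondrial HSPD1 and HSF1 stood at -0.02, 0.07 and -0.15. Without C7 HSPB1 was under 2-fold, at 0.96 ± 0.16 (adjusted p = 0.00114), and HSPA1A was the 1 call.

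**Figure D4:**
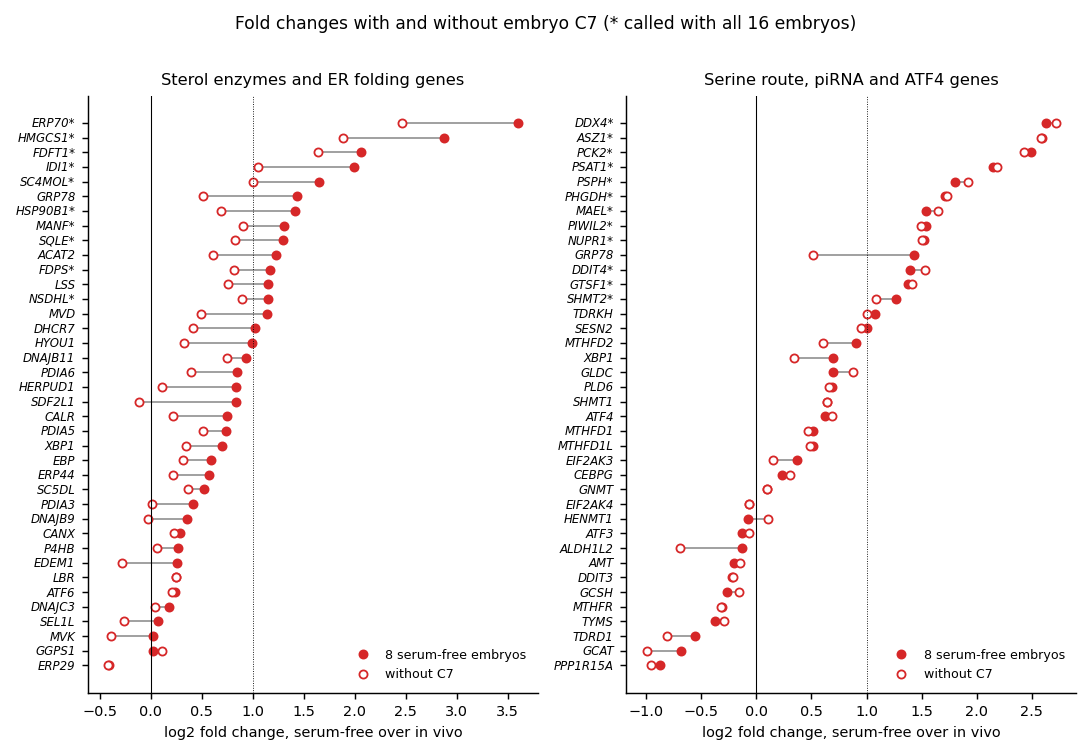
Log2 fold change (serum-free over in vivo, x axis) of each tested member of 6 gene lists (y axis), with all 16 embryos (filled) and without C7 (open). An asterisk marks genes called with all embryos, and the dotted line is 2-fold. Sterol and chaperone genes shift left without C7, with HMGCS1 going from 2.88 to 1.88, while PHGDH goes from 1.71 to 1.73 and DDX4 from 2.63 to 2.72.

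Several genes of the germline were higher in the serum-free embryos. Of 20 piRNA pathway genes listed, 9 were tested, 5 were called upward and 0 downward, both with and without C7, and the median change was 1.37. DDX4, ASZ1 and PIWIL2 reached the count limit only in the serum-free group. DDX4 (VASA), the RNA helicase that marks germ cells, ranged from 1.38 to 13.5 CPM in vivo (median 3.70) and from 3.45 to 91.5 CPM in serum-free embryos (median 20.9). C4, C3 and C10 were highest and C1 and C2 lay within the in vivo range. DDX4 thus differed by 2.63 ± 0.59 (log2, adjusted p = 0.0129). ASZ1, a mitochondrial-surface protein of the piRNA machinery, ranged from 0 to 13.3 CPM in vivo (median 5.54) and from 12.8 to 77.5 CPM in serum-free embryos (median 28.7). Only C6 fell within the in vivo range. The ASZ1 change was 2.59 ± 0.48 (log2, SE), with an adjusted p of 0.00332. GTSF1, a cofactor of PIWI proteins, ranged from 37.9 to 100.5 CPM in vivo (median 53.3) and from 111 to 209 CPM in serum-free embryos (median 147). The groups did not overlap. For GTSF1 this gave a log2 fold change of 1.37 ± 0.20 (adjusted p = 0.000744). MAEL had 1.54 ± 0.36 (adjusted p = 0.0177), and PIWIL2, a PIWI protein that binds piRNAs, 1.53 ± 0.38 (adjusted p = 0.0236). TDRD1, a scaffold of the same machinery, stood at -0.56 (adjusted p = 0.47). Of 2 meiosis genes tested, TEX12, of the synaptonemal complex, was called and ranged from 42.2 to 87.9 CPM in vivo (median 74.6) and from 106 to 299 CPM in serum-free embryos (median 176). TEX12 thus differed by 1.41 ± 0.20 (log2, adjusted p = 0.000715). SYCP3 stood at 0.56 (adjusted p = 0.0881). RNF17 and RBM46, of male germ cells, and the cancer/testis genes FMR1NB and CT55 were noticed after their values were seen, with 2.20 ± 0.42 (adjusted p = 0.00396), 1.65 ± 0.46 (adjusted p = 0.0367), 1.71 ± 0.43 (adjusted p = 0.0246) and 1.82 ± 0.49 (adjusted p = 0.0315). UHRF1, which brings the maintenance DNA methyltransferase to replicated DNA, ranged from 5.02 to 19.9 CPM in vivo (median 15.6) and from 27.2 to 74.4 CPM in serum-free embryos (median 40.1). Its groups did not overlap. The UHRF1 change was 1.80 ± 0.30 (log2, SE), with an adjusted p of 0.00152. DNMT1 itself stood at 0.85 (adjusted p = 0.0229), under 2-fold.

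Oocyte-specific transcripts gave 2 upward calls of 4 tested genes, and both genes reached the count limit only in the serum-free group. BTG4, an adaptor that sends maternal messages to deadenylation, ranged from 0 to 33.7 CPM in vivo (median 0.430) and from 6.19 to 497 CPM in serum-free embryos (median 71.4). The in vivo median rested on 7 embryos at or below 2.21 CPM, with A9 at 33.7 CPM, and the serum-free embryos ran from C1 at 497 and C2 at 242 CPM down to C4 and C10 at 7.08 and 6.19 CPM. For BTG4 this gave a log2 fold change of 4.76 ± 1.04 (adjusted p = 0.0108). Leaving out A9 gave the upper end of the range over left-out embryos, 7.80, and the lower end was 3.98. OOEP, of the subcortical maternal complex, ranged from 0.728 to 5.65 CPM in vivo (median 3.01) and from 8.76 to 23.3 CPM in serum-free embryos (median 14.5) without overlap and had 2.33 ± 0.40 (adjusted p = 0.00212). Other oocyte genes did not reach the count limit: BMP15 averaged 1.58 CPM in vivo and 19.7 CPM in serum-free embryos, OOSP1 0.939 and 20.7 CPM, GDF9 1.53 and 2.74 CPM, and ZP3 2.33 and 2.27 CPM. DPPA3 (STELLA) stood at -0.14 (adjusted p = 0.539).

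LAMA1, the alpha chain of laminin-111 in the basement membrane, ranged from 0 to 12.2 CPM in vivo (median 3.40) and from 18.9 to 98.5 CPM in serum-free embryos (median 34.4). The groups did not overlap. LAMA1 thus differed by 3.46 ± 0.55 (log2, adjusted p = 0.00134). It, too, reached the count limit only in the serum-free group. NID2, which links laminin to collagen IV, ranged from 8.05 to 38.4 CPM in vivo (median 17.5) and from 16.1 to 102 CPM in serum-free embryos (median 78.5). The NID2 change was 1.87 ± 0.36 (log2, SE), with an adjusted p of 0.00447. These were the 2 calls among 12 tested matrix genes. LAMB1 stood at 0.68 (adjusted p = 0.0326), COL4A1 at 0.24 and FN1 at -0.34. ABCB1, the efflux pump P-glycoprotein, was 1 call of 12 ABC transporters tested and ranged from 9.28 to 80.3 CPM in vivo (median 44.6) and from 160.5 to 311 CPM in serum-free embryos (median 183). Each serum-free embryo had at least 160 CPM and no in vivo embryo over 80.3 CPM. For ABCB1 this gave a log2 fold change of 2.14 ± 0.29 (adjusted p = 0.000566). ABCB6, a mitochondrial transporter, stood at -0.96 (adjusted p = 0.000715), just under 2-fold.

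Among 9 prostaglandin and steroid enzymes tested, 4 were called upward and 0 downward. PGHS-2 (PTGS2), which makes prostaglandin H2, ranged from 27.2 to 135 CPM in vivo (median 81.5) and from 11.5 to 1032 CPM in serum-free embryos (median 299). C1 was below every in vivo embryo and the other 7 serum-free embryos above every one. PGHS-2 thus differed by 2.42 ± 0.53 (log2, adjusted p = 0.0106). PTGES, the prostaglandin E synthase, had 1.05 ± 0.30 (adjusted p = 0.0422), CYP17A1, of androgen synthesis, 1.89 ± 0.41 (adjusted p = 0.0106), and PGRMC1, a membrane haem protein, 1.19 ± 0.24 (adjusted p = 0.00628). Without C7, PTGES and PGRMC1 dropped out of the calls, at changes of 0.80 and 0.98. CYP19A1, aromatase, stood at -0.96 (adjusted p = 0.199).

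Antioxidant genes gave 4 upward calls of 19 tested. SOD1, the cytosolic superoxide dismutase, ranged from 47.4 to 108 CPM in vivo (median 62.9) and from 116 to 245 CPM in serum-free embryos (median 184) without overlap. The SOD1 change was 1.43 ± 0.19 (log2, SE), with an adjusted p of 0.0005. PARK7 (DJ-1) had 1.24 ± 0.22 (adjusted p = 0.00285), and the glutathione-cycle enzymes GGT5 and GGCT 1.34 ± 0.34 (adjusted p = 0.0239) and 1.06 ± 0.31 (adjusted p = 0.0471). Without C7, which held 124 CPM of GGCT, GGCT was not called, at 0.77 ± 0.27 (adjusted p = 0.0934), and 3 antioxidant calls were left. Mitochondrial SOD2 stood at -0.34 and NFE2L2 (NRF2) at 0.00. GPX2, a glutathione peroxidase of epithelia, was called with 2.69 ± 0.66 (adjusted p = 0.0214). Of 16 p53 targets tested, 2 were called upward and 1 downward. MDM2, the ubiquitin ligase of p53, had 1.02 ± 0.27 (adjusted p = 0.0312), and SESN1 1.31 ± 0.38 (adjusted p = 0.0465). CCND2, a G1 cyclin, had -1.08 ± 0.29 (adjusted p = 0.0307). SFN (14-3-3 sigma) ranged from 22.1 to 108 CPM in vivo (median 67.1) and from 21.9 to 294 CPM in serum-free embryos (median 45.0) and was not called, with 0.31 ± 0.46 (adjusted p = 0.753).

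Of 13 S100, annexin and TM4SF genes tested, 3 were called upward. S100A2, a calcium-binding protein of epithelia, ranged from 0.975 to 11.6 CPM in vivo (median 5.03) and from 13.3 to 55.3 CPM in serum-free embryos (median 26.6) without overlap and had 2.64 ± 0.40 (adjusted p = 0.000991). TM4SF1, a tetraspanin-like membrane protein, also without overlap, had 2.33 ± 0.33 (adjusted p = 0.000715), and S100A11 2.16 ± 0.46 (adjusted p = 0.00925). S100A2 and S100A11 reached the count limit only in the serum-free group. The annexins tested were not called, with ANXA1 at 0.43 and ANXA6 at -0.49. The epidermal proteases KLK5, KLK6 and KLK7 were the kallikreins that reached the count limit, of 13 listed, KLK5 and KLK7 only in the serum-free group, and had 1.49 ± 0.33 (adjusted p = 0.0125), 1.41 ± 0.27 (adjusted p = 0.00447) and 1.38 ± 0.31 (adjusted p = 0.0142). KLK5 and KLK6 were noticed after their values were seen. Other called genes without overlap between groups were TTC32, PAWR, a pro-apoptotic repressor, and HRSP12 (RIDA), an imine deaminase, with changes of 1.60, 1.39 and 1.12. IL6_1, 1 of several suffixed entries of the interleukin 6 gene that may share reads, was noticed after its values were seen and had 1.27 ± 0.24 (adjusted p = 0.00364). RARB, a retinoic acid receptor, and GFPT2, of hexosamine synthesis, were noticed after their values were seen, with 2.06 ± 0.43 (adjusted p = 0.00756) and 1.80 ± 0.43 (adjusted p = 0.0198). MGC137030, an uncharacterized gene, had 2.84 ± 0.51 (adjusted p = 0.00268).

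**Figure D5:**
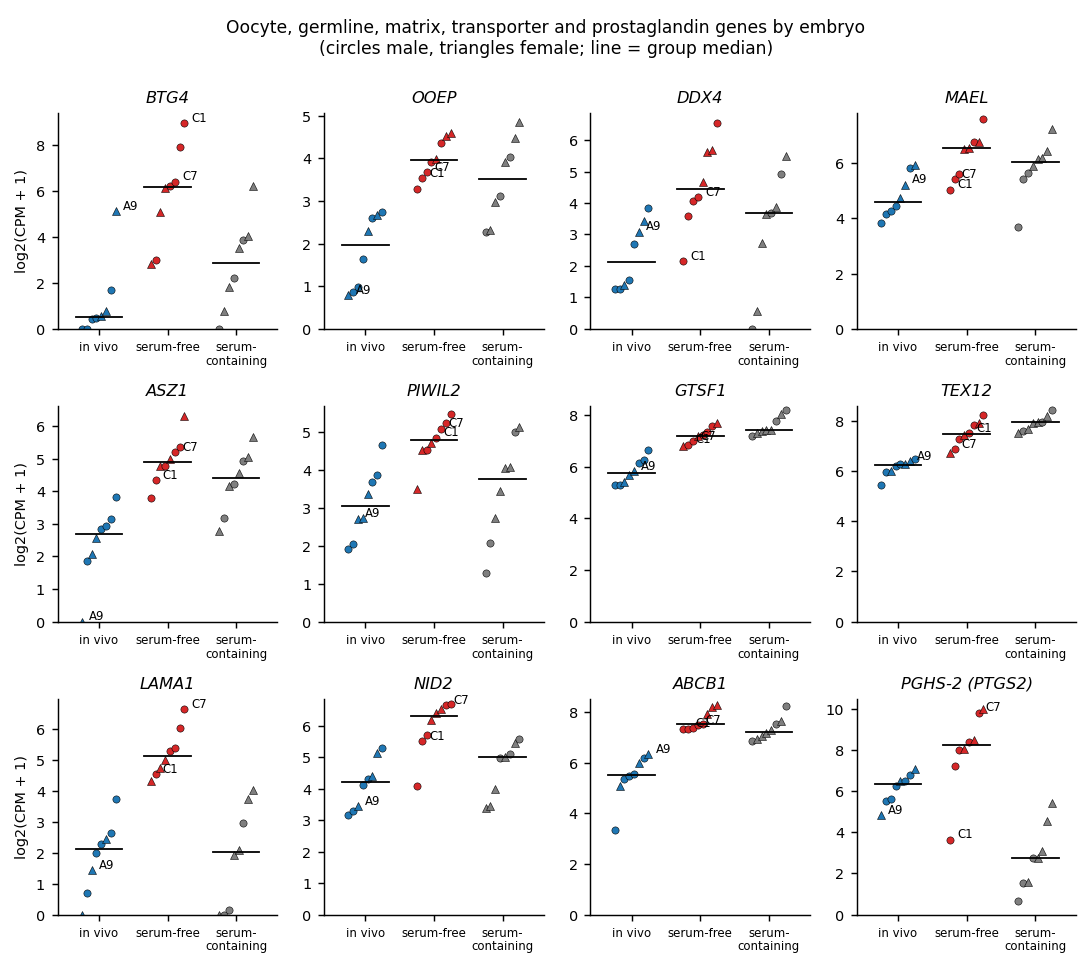
Level of 12 oocyte, germline, matrix, transporter and prostaglandin genes in each embryo, as log2(CPM + 1) on the y axis, by group on the x axis. Circles are male embryos, triangles female, the line is the group median, and A9, C1 and C7 are labelled. Serum-free and in vivo embryos are separate for OOEP, GTSF1, TEX12, LAMA1 and ABCB1, whereas A9 reaches the serum-free range for BTG4.

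Genes higher in vivo were led by GARNL3, a protein with a Rap GTPase-activating domain, which ranged from 57.3 to 219 CPM in vivo (median 100.4) and from 3.63 to 56.1 CPM in serum-free embryos (median 21.0). The groups did not overlap. For GARNL3 this gave a log2 fold change of -2.16 ± 0.39 (adjusted p = 0.00285). ZMYM1, a zinc finger protein, SUCO, of the endoplasmic reticulum, and CNTNAP1, of cell adhesion, also had no overlap, with -1.05 ± 0.14 (adjusted p = 0.000566), -1.16 ± 0.21 (adjusted p = 0.00268) and -1.10 ± 0.28 (adjusted p = 0.0277). TMEM62 ranged from 66.4 to 121 CPM in vivo (median 86.4) and from 11.7 to 87.5 CPM in serum-free embryos (median 20.6), with C7 the only serum-free embryo inside the in vivo range. TMEM62 thus differed by -1.43 ± 0.32 (log2, adjusted p = 0.0129). Without C7 its change was -1.81. SH3YL1, a phosphoinositide-binding protein, behaved alike, with -1.67 ± 0.42 (adjusted p = 0.0239) and -2.31 without C7. PDGFRA, a receptor of the primitive endoderm lineage, ranged from 324 to 581 CPM in vivo (median 476) and from 101 to 374 CPM in serum-free embryos (median 198). Only C10 lay within the in vivo range. The PDGFRA change was -1.01 ± 0.22 (log2, SE), with an adjusted p of 0.00952. IRF1, an interferon regulatory factor, had -1.02 ± 0.20 (adjusted p = 0.00473). Without C7, PDGFRA and IRF1 were under 2-fold, at -0.95 and -0.99 (adjusted p = 0.0143 and 0.00765). The other 8 primitive endoderm genes and the other 4 interferon genes tested were not called. MT2, a metallothionein that binds zinc and copper, had -1.64 ± 0.45 (adjusted p = 0.0354), and FCGR2, an Fc receptor, -1.49 ± 0.44 (adjusted p = 0.0459). AQP11, an aquaporin of the endoplasmic reticulum, had -1.35 ± 0.33 (adjusted p = 0.0203). LRRK2, a kinase, and VRK3, a pseudokinase, had -1.51 ± 0.39 (adjusted p = 0.0277) and -1.26 ± 0.23 (adjusted p = 0.00285). CREBRF, a regulator of the unfolded protein response, and COG3, of the Golgi, had -1.31 ± 0.34 (adjusted p = 0.0277) and -1.25 ± 0.34 (adjusted p = 0.0322). GGNBP1, SEL1L3, TMEM8 and MGC151839 fell by 1.75, 1.40, 1.45 and 1.63 on the log2 scale. CD38, an NAD-consuming enzyme, BCOR, a corepressor, NFIL3, a basic leucine zipper repressor, and BCKDHA, of branched-chain amino acid breakdown, were noticed after their values were seen and fell by 1.15, 1.03, 1.22 and 1.02. ENSBTAG00000035959, which has no symbol in the table and was noticed after its values were seen, had the most negative change, -3.19 ± 0.78 (adjusted p = 0.0208), which rested on 2 in vivo males. A3 and A4 held 147 and 112 CPM, and the other 6 in vivo embryos 3.88 to 9.40 CPM, against 0.876 to 7.32 CPM in serum-free embryos. Its call was lost without A3 (-2.39, adjusted p = 0.0521), and the change in females was -0.33.

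Lineage genes of the blastocyst gave few calls. Among 13 trophectoderm genes tested the only call was PGHS-2, described above, and KRT8, a keratin of this epithelium, ranged from 5968 to 11754 CPM in vivo and from 3841 to 11598 CPM in 7 serum-free embryos, with C7 at 23427 CPM. Its change was -0.02 (log2) with C7 and -0.37 without (adjusted p = 0.979 and 0.258). KRT18, its partner, had 4980 CPM in C7 and at most 2845 CPM in any other of the 16 embryos. Summed over the trophectoderm list the median was 11956 CPM in vivo and 8577 CPM in the serum-free embryos without C7, which itself held 31694 CPM. CDX2 was at 1.27 and 0.764 CPM and was not tested. Among 8 inner cell mass genes there were 0 calls, with POU5F1 (OCT4) at 218 and 174 CPM. NANOG ranged from 1.70 to 27.1 CPM in vivo (median 12.4) and from 5.37 to 228 CPM in serum-free embryos (median 22.0). C7 held 228 CPM and the next embryo 43.3 CPM, and KRT19, a further keratin of the trophectoderm, had 541 CPM in C7 against at most 70.2 CPM elsewhere. Neither was called, with 1.89 ± 0.63 (adjusted p = 0.0829) and 1.18 ± 0.62 (adjusted p = 0.278). Glycolysis gave 0 calls of 15 genes, with a median change of -0.05, and imprinted genes 0 of 3.

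Markers of other cells were mostly low. The sum over 14 blood genes left out the haemoglobin entries HBA_1 and HBA_2. It was 15.5 to 41.5 CPM in vivo and 9.41 to 49.1 CPM in serum-free embryos. HBB stood at 0.186 and 0.369 CPM and PTPRC (CD45) at 0.312 and 0.309 CPM. The haemoglobin entry HBA_1, noticed after its values were seen, was called nevertheless, with 1.03 ± 0.26 (adjusted p = 0.0249). It is 1 of 2 suffixed copies that share sequence. HBA_1 ranged from 5.24 to 14.4 CPM in vivo and from 11.6 to 33.8 CPM in serum-free embryos. The other copy, HBA_2, ranged from 6.05 to 19.4 CPM in vivo and from 11.8 to 36.6 CPM in serum-free embryos. Summed over 12 endometrium and oviduct genes the range was 2.51 to 12.0 CPM in vivo and 4.38 to 19.9 CPM in serum-free embryos. The 17 cumulus and granulosa genes summed to 37.9 to 91.5 CPM in vivo and 27.9 to 91.2 CPM in serum-free embryos, with FSHR, AMH and FOXL2 below 1 CPM in both, and the 10 sperm genes to at most 17.4 and 28.0 CPM. In whole embryos a change in the share of a cell type and a change of RNA per cell cannot be told apart.

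Male and female embryos moved the same way for each of the 101 called genes examined individually. These 101 genes were called with both sexes pooled, so a shared direction was favoured in advance. Fitted alone, with fewer embryos each, male embryos shared 49 of the 161 calls and female embryos 15. A test of the sex by culture interaction over 8425 genes gave 0 calls in edgeR, with 555 genes at an unadjusted p below 0.05, and 5 calls in DESeq2, CTNNBL1, MGST1, NIN, PRDM1 and PSPC1, each at an adjusted p of 0.0487. For BTG4 the fitted change was 8.35 in males, whose in vivo embryos all had at most 2.21 CPM, and 1.63 in females, which included A9, and the interaction had an adjusted p of 0.542. DDX3Y, on the Y chromosome, had 203 to 476 counts in embryos labelled male and 0 to 2 in those labelled female, which matched every sex label.

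Serum-containing embryos gave a level to set beside some of these genes, in a comparison that uses the same 8 serum-free embryos. Against them, 8.91% of 7181 genes tested, 640 genes, were called in the serum-free group, or 393 genes without C7. The same count limit was used. PGHS-2, LAMA1, FADS1, BTG4, CTH, PHGDH, PSAT1 and PCK2 reached it only in the serum-free group, and MT2 only in the serum-containing group. These genes could thus enter this test only through the group in which they were high. PGHS-2 averaged 77.2 ± 35.9 CPM in vivo, 413 ± 361 in serum-free and 10.9 ± 14.1 in serum-containing embryos (SD, n = 8 each), and serum-free exceeded serum-containing by 5.23 ± 0.84 (adjusted p = 0.00236). LAMA1 averaged 5.09 ± 5.94 CPM with serum, and serum-free embryos exceeded it by 3.04 ± 0.75 (adjusted p = 0.0136). For FADS1 the same difference was 2.72 ± 0.62 (adjusted p = 0.00982), for HMGCS1 2.21 ± 0.64 (adjusted p = 0.0259), for BTG4 3.09 ± 0.95 (adjusted p = 0.034) and for CTH 1.79 ± 0.58 (adjusted p = 0.0429). Without C7 the calls of HMGCS1, CTH and BTG4 were lost (adjusted p = 0.105, 0.0828 and 0.0508), and without C1 that of BTG4 (0.0897). Of the other called sterol enzymes, IDI1 and SQLE differed by 2.20 ± 0.58 and 1.19 ± 0.37 (adjusted p = 0.0183 and 0.0358). Neither was called without C7. FDPS differed by 0.95 (adjusted p = 0.0406), under 2-fold. FDFT1, SC4MOL and NSDHL were not called, at 0.78, 0.57 and 0.25 (adjusted p = 0.139, 0.398 and 0.65). FDFT1 averaged 111 CPM with serum, and all 8 of these embryos exceeded the in vivo maximum. PHGDH, PSAT1 and PCK2 had medians of 18.1, 29.0 and 6.54 CPM with serum, and 1 serum-containing embryo, B8, held 278, 385 and 118 CPM. Their differences of 1.28 ± 0.69 (adjusted p = 0.205), 1.56 ± 0.66 (adjusted p = 0.108) and 1.73 ± 0.73 (adjusted p = 0.105) did not pass the test with B8. Without B8 they were 2.74 ± 0.50 (adjusted p = 0.00276), 2.78 ± 0.51 (adjusted p = 0.0026) and 2.81 ± 0.65 (adjusted p = 0.00872). SHMT2 went the other way, with 191 ± 47.2 CPM with serum and a difference of -0.74 ± 0.24 (adjusted p = 0.0426), under 2-fold. Without B8 the adjusted p of SHMT2 was 0.0525. DDIT4 averaged 148 ± 72.3 CPM with serum, a difference of -0.25 ± 0.32 (adjusted p = 0.621). ABCB1 averaged 169.8 ± 62.2 CPM with serum, a difference of 0.34 ± 0.22 (adjusted p = 0.283), and TEX12 245 ± 54.2 CPM, a difference of -0.38 ± 0.21 (adjusted p = 0.2). CT55 and MT2 were lower in serum-free than in serum-containing embryos, with differences of -2.82 ± 0.43 (adjusted p = 0.00236) and -3.07 ± 0.50 (adjusted p = 0.00236).

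Of the 101 called genes examined individually, 57 stayed called whichever of the 16 embryos was left out.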

How the data were processed

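Each blastocyst was sequenced singly from a low-input, full-length cDNA library that does not keep strand, as paired-end reads. Per the study's methods, the authors trimmed reads for quality and by a fixed number of bases at the 5′ end, mapped them to the cattle genome UMD 3.1 with CLC Genomics Workbench, and deposited counts of fragments mapped uniquely to exons, 1 value per gene and embryo. Reads of overlapping, antisense or duplicated genes (names with a suffix, such as HBA_1) could therefore be merged or lost. Values were raw counts, and no column was left without a sample.

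Genes with at least 15 counts in every embryo of either group were fitted with edgeR 4.0.16 (R 4.3.3) by TMM normalization and the quasi-likelihood F test, with Benjamini-Hochberg adjustment over all genes tested. A gene was called at an adjusted p below 0.05 and a change of at least 2-fold. The standard error is the fold change divided by the square root of F. CPM values are counts per 1e+06 counts of genes past the limit in any group of the series, TMM-scaled over the 24 embryos. Groups are those of the labels. The embryo totals of 3350180 to 5756202 counts set the precision.

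Gene lists and genes were chosen with earlier results of these data known. The text names 7 genes set in advance of the fit, every listed gene that was called, called genes without overlap between groups, and the 15 largest changes in each direction, the last 2 kinds with a symbol and a mean of at least 10 CPM. Genes said to be noticed after their values were seen lie outside this rule, as do HSP90B1, GRP78, ACAT2, MVD, DHCR7, NANOG, KRT19 and the chaperones CALR, HYOU1 and PDIA3. Older symbols were matched to list names through RefSeq synonyms. On counts simulated for this comparison, 99% of 200 genes changed 4-fold among 7314 were recovered, with 3 false calls. The simulated embryos were independent, none was an outlier like C7, and the count limit was not applied to them. The real calls had smaller median changes, 1.50 upward and -1.16 downward (log2). The simulation therefore checks the fit and does not give the power or false calls of the real comparison. DESeq2 1.42.0, other filters, scalings, covariates and left-out embryos were tried as alternatives. Promoter sequence and gene lengths were not used here, and a few listed genes are not reported here and were left out of the list counts. No 2 embryos had identical counts.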

Additional observations from a re-analysis of the deposited data

Results flagged for a closer look

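A gap test (Dixon's, at its 95% critical value for 8 embryos) was run on the levels of 111 named genes in each of the 2 groups, 222 sets of 8 embryos. For normally distributed values chance flags about 1 set in 20. The test was run on CPM without a log transform, for which that rate may not hold. It singled out 36 values, each the highest of its set. Of these, 27 belonged to the serum-free male C7, against 1 or 2 in each of 6 other embryos. Several of these genes were named because C7 stood out for them.

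Among sterol and lipid genes, C7 held levels far above the next serum-free embryo, in brackets: HMGCS1 1508 CPM (next 431), ACAT2 607 CPM (next 225), MVD 167 CPM (next 46.7), IDI1 332 CPM (next 60.3), FDPS 190.2 CPM (next 86.9), FDFT1 536 CPM (next 244), SQLE 276 CPM (next 108), SC4MOL 1416 CPM (next 499), DHCR7 170.1 CPM (next 46.4), C10H14ORF1 73.4 CPM (next 41.6) and FADS1 101 CPM (next 39.6). Among genes of the endoplasmic reticulum these were GRP78 8051 CPM (next 1887), HSP90B1 3233 CPM (next 623), PDIA3 4011 CPM (next 1231), CALR 3377 CPM (next 965), HYOU1 337 CPM (next 92.2), ERP70 827 CPM (next 126), MANF 1109.6 CPM (next 424) and GMPPB 279 CPM (next 79.6). The remaining C7 values were SFN 294 CPM (next 131), GGCT 124 CPM (next 65.4), HSPB1 1597 CPM (next 943), FABP5 148 CPM (next 60.7), SH3YL1 50.7 CPM (next 14.8), TMEM62 87.5 CPM (next 43.7), NANOG 228 CPM (next 43.3) and KRT19 541 CPM (next 61.7). TMEM62 and SH3YL1 are genes that were lower in the serum-free group, and C7 was the highest embryo of that group for both.

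Elsewhere, A9 had 33.7 CPM of BTG4 against at most 2.21 CPM in the other in vivo embryos. A3 had 107 CPM of PHGDH (next 42.8). A1 had 12.2 CPM of LAMA1 (next 5.15) and 40.6 CPM of NUPR1 (next 21.8). In the serum-free group C4 had 196 CPM of MAEL (next 109) and 79.0 CPM of FCGR2 (next 35.9), C3 had 77.5 CPM of ASZ1 (next 39.6), and C8 had 41.5 CPM of MST4 (next 16.1) and 28.8 CPM of DPYSL3 (next 9.43). Without C7 the sterol and endoplasmic reticulum lists kept 1 of 3, 1 of 4 and 1 of 3 calls. What set C7 apart was not tested.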

How the results depend on the processing

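The number of calls was 161 (118 higher in serum-free, 43 higher in vivo). It stayed within 1.5 times under the exact test, DESeq2, its size factors and no composition normalization. The same held for the limit of 1 count, sex as a covariate, thinned counts and robust dispersions, with 138 to 208 calls over all these settings. Of the 161 calls, the limit of 1 count shared 105, thinned counts 132, and the others 153 to 161. Requiring 15 counts in every embryo of both groups, which tests fewer genes, gave 94 (67 and 27). One fit over all 24 embryos gave 74 (62 and 12), the cause of which was not tested, and fewer embryos gave 74 (50 and 24) for males and 25 (17 and 8) for females. Leaving out each embryo gave 115 to 174 calls, 93 to 134 upward and 22 to 48 downward. A replicate block on embryo number (7 shared numbers, without A9 and C10) gave 82 (60 and 22), and the same 14 embryos without it 136 (110 and 26). The labels give the number as a name only: deviations of same-numbered embryos correlated at -0.109 to 0.0684, and 0 of 7 in vivo embryos matched their own number best. No named gene that was called reversed its sign under any of these settings.

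Serum-free against serum-containing, 640 genes were called, 366 with the stricter filter, 393 to 784 leaving out each embryo (393 without C7), and 29 under the replicate block, against 432 for those 14 embryos without it. The interaction gave 0 calls (0 to 0 leaving out each embryo, 0 with the stricter filter) but 5 in DESeq2. At 3350180 to 5756202 counts per embryo, genes of a few CPM fell under the limit of 15 counts and were not tested.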

Other observations

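A few called genes outside the lists were noticed after their values were seen. LGMN, the asparaginyl endopeptidase of lysosomes, rose from 63.1 ± 24.8 CPM in vivo to 141 ± 48.5 CPM in serum-free embryos (SD, n = 8 each), a log2 fold change of 1.16 ± 0.23 (adjusted p = 0.00477). ASAH1, acid ceramidase, had 1.40 ± 0.39 (adjusted p = 0.0371), and an adjusted p of 0.0634 without C7. TFDP1, the partner of E2F factors, went from 9.89 ± 2.46 to 20.7 ± 7.45 CPM, with 1.06 ± 0.27 (adjusted p = 0.0277). MST4 (STK26), a kinase of the cell cortex, had 2.26 ± 0.53 (adjusted p = 0.0165), DPYSL3, of the cytoskeleton, 2.23 ± 0.44 (adjusted p = 0.00477), and SLC28A2, a purine nucleoside carrier, 2.16 ± 0.58 (adjusted p = 0.0319). GMPPB, which makes GDP-mannose for glycosylation, had 1.15 ± 0.32 (adjusted p = 0.0371), and 0.65 ± 0.20 (adjusted p = 0.0566) without C7.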
